A study of Mus musculus with 9 samples.

Results

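The 9 genes described here make up the inducible machinery that cuts peptides and loads them on major histocompatibility complex (MHC) class I molecules: Psmb8, Psmb9, Psmb10, Psme1, Psme2, Tap1, Tap2, Tapbp and B2m. They were chosen by name and were measured by 14 of the 41174 gene probes on the array. All 9 were among the 16730 genes tested, and all 14 probes were well above background on all 9 arrays.

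Proteasomes degrade proteins in the cytosol, and some of the peptides are shown to CD8 T cells on the cell surface. Interferons replace the catalytic subunits of the constitutive core particle, encoded by Psmb5, Psmb6 and Psmb7, with Psmb8, Psmb9 and Psmb10, and this form is called the immunoproteasome. Psme1 and Psme2 encode the subunits of an activator ring that caps the core and opens it. Tap1 and Tap2 form the transporter that pumps peptides into the endoplasmic reticulum, Tapbp encodes tapasin, which holds the class I heavy chain at that transporter, and B2m encodes β2-microglobulin, the light chain of every classical class I molecule. Interferons raise this machinery in many cell types, hepatocytes among them.

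Total RNA came from the liver, lobe A by the sample titles, of male C57BL/6 mice 3 months old, and was hybridised to 1-colour Agilent arrays, 3 per group. The groups were untreated wild-type mice (replicates 2, 3 and 4), mice treated with AAV-GFP (replicates 1, 2 and 3) and mice treated with AAV-hGRβ (replicates 1, 2 and 3). AAV is an adeno-associated virus used as a gene carrier, GFP is green fluorescent protein, and hGRβ is the β splice form of the human glucocorticoid receptor. The AAV-GFP mice are the control for the vector, and the study asks what hGRβ does in the liver. The promoter of the vectors, their dose and route, and the time between injection and sampling are not given in the sources used here. Nothing in the labels says that replicates are separate animals, so p-values measure the spread between these samples, which may be technical.

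Signals are on a log2 scale on which 0 is the 75th percentile of an array, and levels of different probes are not compared. Between 54.0% and 82.0% of gene spots on an array were well above background, the highest share on AAV-hGRβ replicate 1. Before scaling, the median intensity was 79.0 and 72.9 on AAV-hGRβ replicates 1 and 3 and 38.1 on AAV-hGRβ replicate 2. On the arrays of the other groups it was 37.7 to 60.8. Untreated replicate 2, AAV-GFP replicate 3 and AAV-hGRβ replicate 1 were scanned on a second day, and the other 6 arrays on the first. The 2 first-day arrays of each group shared a slide that held no other group, so slide and group cannot be told apart among them. Of the second-day arrays, AAV-GFP replicate 3 and AAV-hGRβ replicate 1 shared a slide, and untreated replicate 2 lay on another. Over all genes tested, correlations ran from 0.973 to 0.988 within groups and from 0.950 to 0.989 between groups. A gene was called at an adjusted p under 0.05 (limma over all 9 arrays, Benjamini-Hochberg over all genes tested).

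In livers given AAV-hGRβ, Psmb8 and Psmb9 stood 2.20-fold and 2.31-fold above AAV-GFP, and 2.63-fold and 2.82-fold above untreated livers. Both rose against untreated livers, where 3.3% of all genes were called. These calls held under 11 of 21 alternatives, among them a repeat of the main fit on the same values. They were lost with slide as a random block (adjusted p = 0.113 and 0.153, limma). By contrast, 0 of the 9 genes passed the limma test against AAV-GFP (0.897% of all genes did, and 5 of the 9 had an unadjusted p under 0.05) and 0 passed for AAV-GFP against untreated livers (0% of all genes, and 0 of the 9 unadjusted). Psmb10, Psme1, Tapbp and B2m were higher by smaller amounts on every AAV-hGRβ array than on any other array, without passing. Psme2, Tap1 and Tap2 overlapped between all groups on the probe that stands for each gene. In whole tissue, a change in the number of cells of a type and a change in RNA per cell cannot be told apart.

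Psmb8 encodes the inducible subunit that takes the place of Psmb5, the chymotrypsin-like subunit. Its signal was 4.43, 3.58 and 3.95 on the untreated arrays, 4.30, 4.21 and 4.21 with AAV-GFP, and 5.16, 5.38 and 5.59 with AAV-hGRβ. The AAV-hGRβ arrays all lay above the other 6, while the AAV-GFP arrays lay within the untreated range. The log2 difference was 1.14 against AAV-GFP (SE 0.23, adjusted p = 0.0661, limma) and 1.39 against untreated livers (SE 0.23, adjusted p = 0.0194). AAV-GFP differed from untreated livers by 0.25 (adjusted p = 0.611). On the second probe of the gene the signal was 3.70, 2.86 and 3.10 in untreated livers, 3.64, 3.60 and 3.55 with AAV-GFP, and 4.65, 4.64 and 4.92 with AAV-hGRβ. That probe gave the same order of arrays between groups, with log2 differences of 1.14 and 1.52 (adjusted p = 0.0747 and 0.0156 when every probe was fitted as a row of its own). In the array files, on build mm7, the first probe maps to chr17:32280725-32281049, a span of 325 bases that crosses a gap, and the second to chr17:32280668-32280727. No annotation of that build was used here, so exons are not named. These 60-base probes are shown because they read neighbouring stretches of the Psmb8 transcript and gave matching differences:
Psmb8 first probe: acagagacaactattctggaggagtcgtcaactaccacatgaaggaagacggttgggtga
Psmb8 second probe: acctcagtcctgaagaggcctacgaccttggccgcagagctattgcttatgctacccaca

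Psmb9 encodes the inducible counterpart of Psmb6, the caspase-like subunit. Its signal was 4.36, 3.40 and 3.85 in untreated livers, 4.02, 4.11 and 4.34 with AAV-GFP, and 5.15, 5.36 and 5.59 with AAV-hGRβ. Again the AAV-hGRβ arrays stood apart, and the other groups overlapped. The log2 difference was 1.21 against AAV-GFP (SE 0.25, adjusted p = 0.0801, limma), 1.50 against untreated livers (SE 0.25, adjusted p = 0.0230) and 0.29 between AAV-GFP and untreated livers (adjusted p = 0.604). Its probe maps to chr17:32262147-32262206 on the minus strand of mm7, and Psmb8, Psmb9, Tap1 and Tap2 lie beside each other in the MHC region. The probe is shown because it carries, with those of Psmb8, the calls against untreated livers:
Psmb9 probe: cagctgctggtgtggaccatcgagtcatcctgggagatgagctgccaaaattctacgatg

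Psmb10, the inducible counterpart of the trypsin-like subunit Psmb7, differed less. It read 5.87, 5.35 and 5.52 in untreated livers, 5.47, 5.57 and 5.70 with AAV-GFP, and 5.97, 6.04 and 6.16 with AAV-hGRβ. The AAV-hGRβ arrays were the highest, with untreated replicate 2 close below the lowest of them. The log2 differences of 0.48 against AAV-GFP (adjusted p = 0.330, limma) and 0.48 against untreated livers (adjusted p = 0.149) did not pass, and AAV-GFP differed from untreated livers by -0.0029 (adjusted p = 0.995). The probe maps to chr8:104534632-104534691 on the minus strand.

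**Figure D1:**
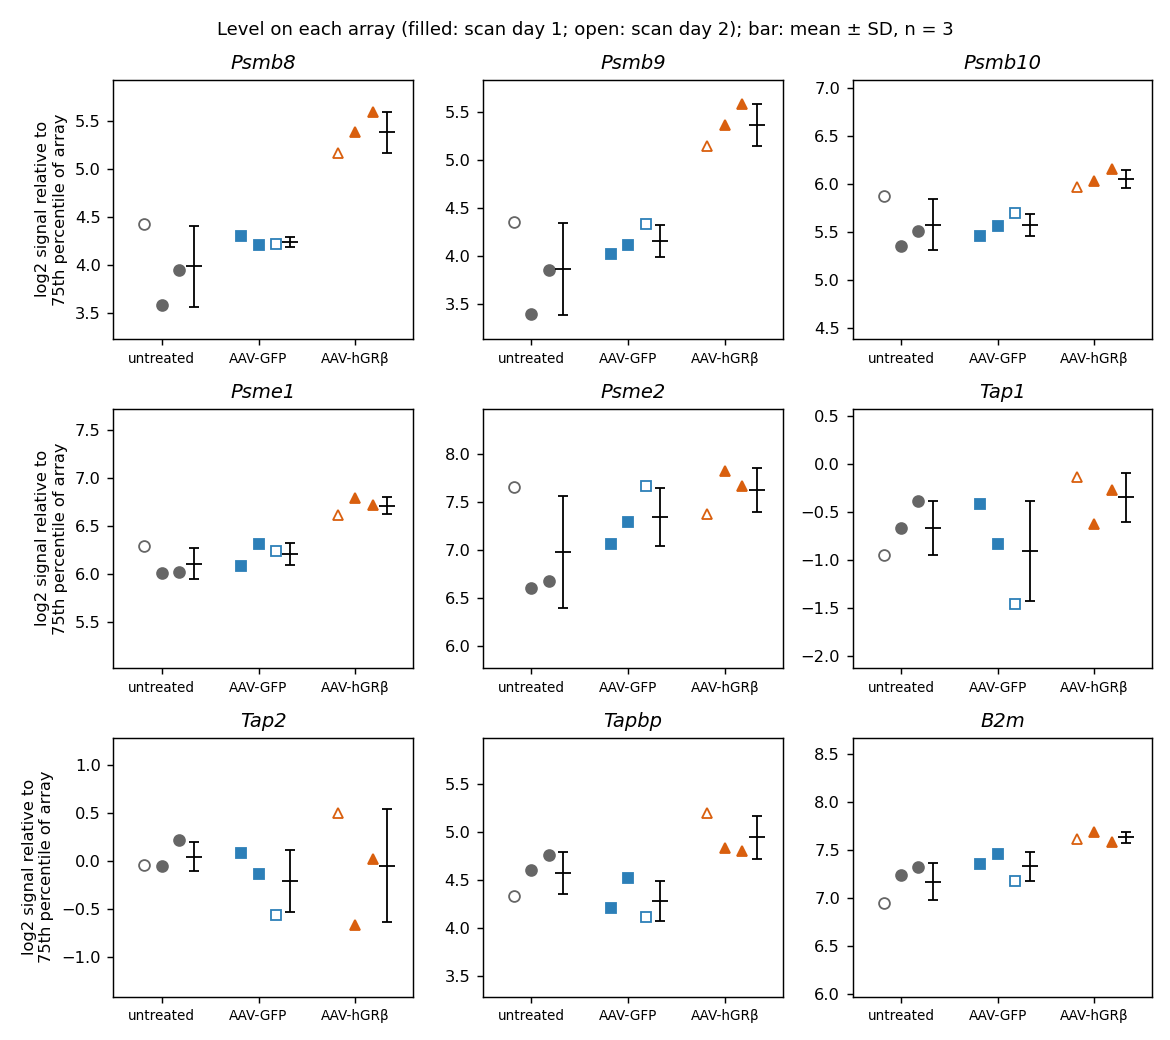
Log2 signal, with 0 at the array's 75th percentile, for each of the 9 genes, by array and group, with scan day 1 filled, scan day 2 open, and mean ± SD of 3 arrays beside each group; the panels span equal heights but start at different levels. All AAV-hGRβ arrays lie above all others for Psmb8, Psmb9, Psmb10, Psme1, Tapbp and B2m, and the groups overlap for Psme2, Tap1 and Tap2.

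The activator genes gave a small difference from AAV-GFP for Psme1 and one within the spread of the arrays for Psme2. Psme1 read 6.29, 6.00 and 6.02 in untreated livers, 6.08, 6.31 and 6.23 with AAV-GFP, and 6.61, 6.79 and 6.72 with AAV-hGRβ. The AAV-hGRβ arrays did not overlap the others, with log2 differences of 0.50 against AAV-GFP (SE 0.16, adjusted p = 0.250, limma) and 0.60 against untreated livers (SE 0.16, adjusted p = 0.0730). Its probe maps to chr14:50448660-50448719.

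Psme2 read 7.66, 6.60 and 6.68 in untreated livers, 7.07, 7.30 and 7.67 with AAV-GFP, and 7.37, 7.83 and 7.67 with AAV-hGRβ. Untreated replicate 2 and AAV-GFP replicate 3, both of the second scan day, reached the AAV-hGRβ levels, so all groups overlapped. The log2 difference was 0.28 against AAV-GFP (SE 0.30, adjusted p = 0.815, limma) and 0.64 against untreated livers (adjusted p = 0.219), and its second probe gave 0.29 and 0.84 (adjusted p = 0.681 and 0.0615). On that second probe the AAV-hGRβ arrays, at 6.69, 7.09 and 7.09, lay above all untreated arrays, which read 6.35, 5.94 and 6.05. The array files name both probes Psme2b-ps, a copy of Psme2, but list the accessions of Psme2 for them and place them at chr14:50454846-50454905 and chr14:50455438-50455635, next to Psme1. Transcripts of the copy and of Psme2 cannot be told apart on these probes, which are shown for that reason, and without them 8 genes and 12 probes remain:
Psme2 first probe: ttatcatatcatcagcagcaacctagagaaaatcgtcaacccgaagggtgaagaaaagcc
Psme2 second probe: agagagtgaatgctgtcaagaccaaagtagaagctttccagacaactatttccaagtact

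For the transporter genes the arrays of a group spread widely, and the groups overlapped. Tap1 read -0.95, -0.66 and -0.39 in untreated livers, -0.42, -0.84 and -1.46 with AAV-GFP, and -0.14, -0.63 and -0.27 with AAV-hGRβ. Its lowest value came from AAV-GFP replicate 3, and its log2 difference was 0.56 against AAV-GFP (SE 0.28, adjusted p = 0.506, limma) and 0.32 against untreated livers (adjusted p = 0.477). Tap2 read -0.036, -0.043 and 0.22 in untreated livers, 0.083, -0.13 and -0.56 with AAV-GFP, and 0.50, -0.66 and 0.029 with AAV-hGRβ. The AAV-hGRβ arrays held both its highest and its lowest value, with differences of 0.16 against AAV-GFP (SE 0.30, adjusted p = 0.904, limma) and -0.092 against untreated livers (adjusted p = 0.858). The Tap1 probe maps to chr17:32273751-32273810 and the Tap2 probe to chr17:32294682-32295269.

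Tapbp, which encodes tapasin, read 4.33, 4.61 and 4.76 in untreated livers, 4.20, 4.52 and 4.12 with AAV-GFP, and 5.19, 4.83 and 4.80 with AAV-hGRβ. AAV-GFP replicates 1 and 3 held the lowest signals, and the AAV-hGRβ arrays the highest. The log2 difference was 0.66 against AAV-GFP (SE 0.20, adjusted p = 0.220, limma), 0.38 against untreated livers (adjusted p = 0.256) and -0.29 between AAV-GFP and untreated livers (adjusted p = 0.526). A second, dimmer probe gave 0.29 against AAV-GFP with overlapping groups. The probes map to chr17:32007107-32007166 and chr17:32004181-32004240.

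B2m, the light chain gene, read 6.95, 7.24 and 7.32 in untreated livers, 7.35, 7.46 and 7.17 with AAV-GFP, and 7.62, 7.69 and 7.59 with AAV-hGRβ. The AAV-hGRβ arrays were highest and close to each other (SD 0.053), with log2 differences of 0.30 against AAV-GFP (SE 0.17, adjusted p = 0.549, limma) and 0.46 against untreated livers (adjusted p = 0.138). Its 3 probes disagreed in size. A probe printed in 10 spots, whose SD over spots within an array was 0.068 to 0.14, gave 0.25 against AAV-GFP with overlapping groups. The third, a dimmer probe at chr2:121889716-121889775, gave 1.01 (adjusted p = 0.229) with groups that did not overlap. The other probes map to chr2:121893518-121893577 and chr2:121893642-121893698.

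**Figure D2:**
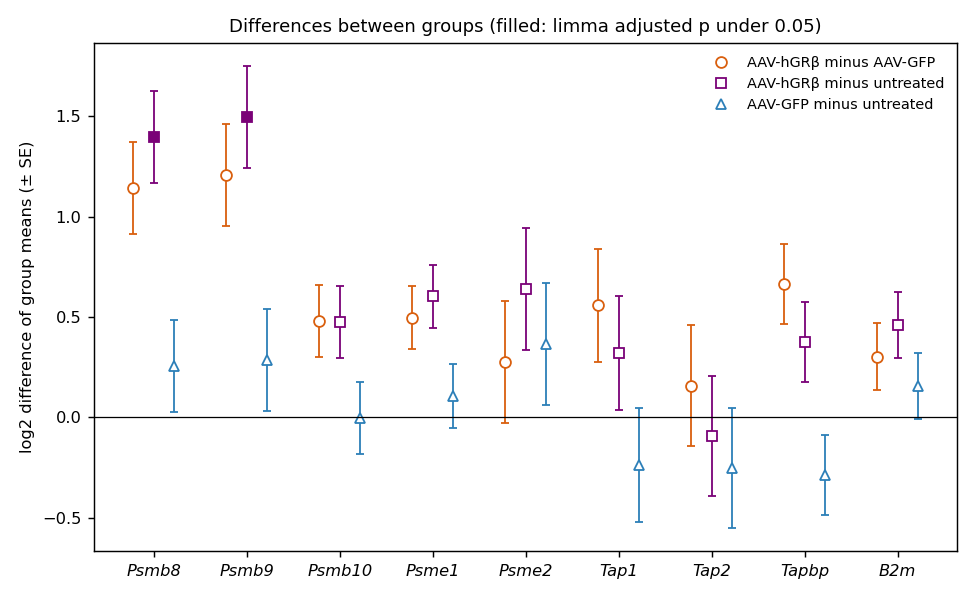
Log2 difference of group means ± SE (limma, 3 arrays per group) for each gene in the comparisons of AAV-hGRβ with AAV-GFP, of AAV-hGRβ with untreated livers and of AAV-GFP with untreated livers; filled symbols have an adjusted p under 0.05. Psmb8 and Psmb9 have the largest differences of the 9 genes, 1.14 and 1.21 against AAV-GFP, and are the only filled symbols, against untreated livers.

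Set against all genes, the counts were as follows. For AAV-hGRβ against AAV-GFP, 0 of the 9 genes were called, where 0.897% of all genes tested were, and 5 had an unadjusted limma p under 0.05, where 11.7% did. Without overlap of the groups 6 of the 9 were higher, where 9.38% of all genes were. The median log2 difference of the 9 genes was 0.50, beside 0.022 over all genes, and by probe 8 of 14 were higher without overlap (8.74% of all probes). Against untreated livers, 2 of the 9 were called higher, where 2.51% of all genes were (3.3% in either direction), and 6 were higher without overlap (14.7%), or 9 of 14 by probe (14.1%). The median there was 0.48, beside 0.093 over all genes. For AAV-GFP against untreated livers, 0 of the 9 were called by limma (0% of all genes), and 0 had an unadjusted p under 0.05 (9.83%). None was higher without overlap (5.7% of all genes) or lower without overlap (9.18%), and the median was 0.11, beside 0.037. These comparisons share arrays and are not independent of each other.

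The 9 log2 differences against AAV-GFP were all above 0, but with arrays scaled to their medians Psme2 (-0.061), Tap2 (-0.18) and B2m (-0.035) lay below 0, as did Tap1 (-0.064) under normexp background correction. Scaling to medians lowered all genes by 0.34 in this comparison, and the median of the 9 genes minus that of all genes was 0.48 with either scaling. Psmb8 and Psmb9 lay above 0 against AAV-GFP under all 21 alternatives tried, from 0.80 to 1.80 and from 0.87 to 1.92, and were called under 4 and 2 of them. Several alternatives, such as the filters on dim probes, scan day as a block and leaving out an untreated array, left these differences as they were. Those bear on the p alone and are not separate support for direction. Against untreated livers, where leaving out an AAV-GFP array likewise left the differences as they were, both were above 0 under all 21 and called under 11. These calls were lost without untreated replicate 3 (adjusted p = 0.0742 for Psmb8 and 0.0772 for Psmb9), untreated replicate 4 (0.0888 and 0.0952), AAV-hGRβ replicate 2 (0.0529 and 0.0567) or AAV-hGRβ replicate 3 (0.105 and 0.117). Without untreated replicate 2, 4 of the 9 genes were called against untreated livers, with Psme1 (adjusted p = 0.0386) and Psme2 (adjusted p = 0.0396) added, and Psmb8 (adjusted p = 0.0352) and Psmb9 (adjusted p = 0.0433) were also called against AAV-GFP, since that array enters the shared estimate of the spread. Calls also rose outside the 9 genes in that setting, to 19 pathway list genes against untreated livers. The share of all genes called there is not given here, so the gain is not read as particular to the 9 genes.

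Within scan days, the differences of Psmb8 from AAV-GFP were 1.23 on the first day and 0.95 on the second, where each group has a single array and the AAV-GFP and AAV-hGRβ arrays share a slide. Those of Psmb9 were 1.41 and 0.81, of Psmb10 0.58 and 0.27, of Psme1 0.56 and 0.38, of Tapbp 0.46 and 1.08, and of B2m 0.23 and 0.44. For these 6 genes the sign within a day was fixed in advance, since all their AAV-hGRβ arrays lay above all AAV-GFP arrays. Only the sizes are thus given. Tap1 was above 0 on both days (0.18 and 1.31), while Psme2 (0.56 and -0.30) and Tap2 (-0.29 and 1.06) changed sign between days. Against untreated livers, Psmb8 differed by 1.72 and 0.74 and Psmb9 by 1.85 and 0.79. With scan day as a block their adjusted p against AAV-GFP was 0.0581 and 0.0571, and with slide as a random block 0.135 and 0.194. Against untreated livers it was 0.0159 and 0.0155 with scan day, and 0.113 and 0.153 with slide.

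The exchange of subunits in the proteasome itself was not measured, since the arrays read RNA. At the RNA level, the log2 signal of an inducible gene minus that of its constitutive counterpart was taken within each array. This difference cancels the scaling of the array and is compared between groups, not read as a ratio of molecules. For Psmb8 minus Psmb5 it was -1.43, -1.57 and -1.20 in untreated livers, -1.16, -1.57 and -1.54 with AAV-GFP, and -0.64, -0.55 and -0.27 with AAV-hGRβ. The AAV-hGRβ arrays were highest, by 0.94 over AAV-GFP and 0.92 over untreated livers. For Psmb9 minus Psmb6 it was -2.61, -2.74 and -2.30, then -2.53, -2.65 and -2.62, then -1.47, -1.75 and -1.20 in the same order, again without overlap, with differences of 1.12 and 1.08. AAV-GFP and untreated livers differed by -0.021 and -0.049 in these measures, and their arrays overlapped.

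For Psmb10 minus Psmb7 the arrays read 1.66, 1.72 and 1.99 in untreated livers, 1.30, 1.33 and 1.54 with AAV-GFP, and 2.04, 1.84 and 1.87 with AAV-hGRβ. Here AAV-GFP was lowest without overlap, 0.53 below AAV-hGRβ and 0.40 below untreated livers, while AAV-hGRβ and untreated livers overlapped. Psme1 minus Psme3, the activator subunit set against that of the nuclear activator ring, was higher with AAV-hGRβ by 0.61 over AAV-GFP and 0.94 over untreated livers, without overlap in either comparison. Psme2 minus Psme3 overlapped in both, with 0.38 and 0.98. Over 5 pairs, an exact two-sided permutation test gave p = 0.1 against AAV-GFP for the first 4 (adjusted p = 0.125) and p = 0.4 for Psme2 minus Psme3, and 0.1 is the smallest p that 3 arrays against 3 allow. The 2 scan days gave 0.96 and 0.90 for Psmb8 minus Psmb5, 1.11 and 1.15 for Psmb9 minus Psmb6, 0.54 and 0.50 for Psmb10 minus Psmb7, and 0.75 and 0.32 for Psme1 minus Psme3, but 0.76 and -0.36 for Psme2 minus Psme3. For the first 4 pairs the sign within a day was fixed in advance, since their AAV-hGRβ and AAV-GFP arrays did not overlap.

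**Figure D3:**
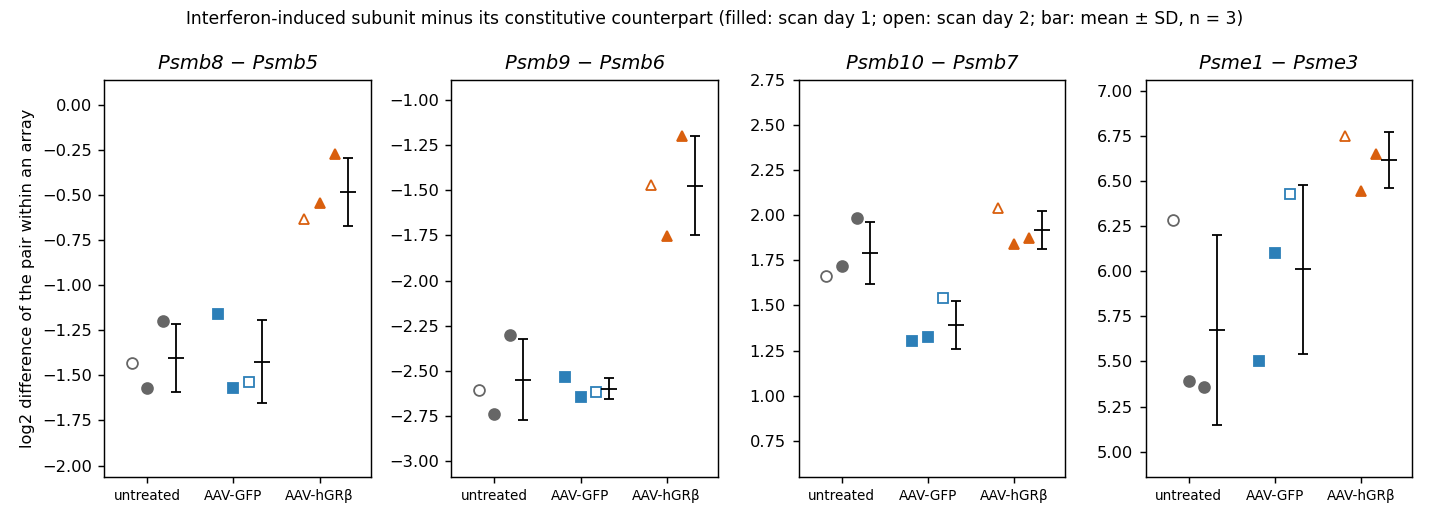
Log2 signal of an inducible subunit gene minus that of its constitutive counterpart (Psme3 for the activator gene Psme1) on each array, with scan day 1 filled, scan day 2 open, and mean ± SD of 3 arrays beside each group; the panels span equal heights. For Psmb8 minus Psmb5 and Psmb9 minus Psmb6 the AAV-hGRβ arrays lie above all others, by 0.94 and 1.12 on average over AAV-GFP.

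The constitutive proteasome gave 0 calls in limma against AAV-GFP (0.897% of all genes were called). In its lists 1 gene, Psmf1, had an unadjusted limma p under 0.05 (11.7% of all genes). The 9 genes described also had 0 calls there, so the calls do not set these lists apart from them. Psmb5 differed between AAV-hGRβ and AAV-GFP by 0.20 (adjusted p = 0.814, limma), Psmb6 by 0.084 (0.951), Psmb7 by -0.048 (0.964) and Psme3 by -0.11 (0.932). Of 14 constitutive core subunits 0 were called in any comparison (median 0.16 against AAV-GFP), and the smallest p belonged to Psma1 (0.32, adjusted p = 0.663) and Psma6 (0.25, adjusted p = 0.786), structural subunits of the outer ring. Against untreated livers the median of these 14 genes was 0.43, and for AAV-GFP against untreated livers 0.30. Of 18 genes of the regulatory particle, which unfolds substrates, 0 were called (median 0.056), with the smallest p for Psmd14 (0.32, adjusted p = 0.702), a deubiquitinase, and Psmc5 (0.19, adjusted p = 0.779), an ATPase. Of 7 other activators, inhibitors and assembly factors 0 were called (median -0.019), among them Psmf1 (0.47, adjusted p = 0.330), a proteasome inhibitor, and the assembly chaperone Psmg1 (-0.19, adjusted p = 0.752). Higher than AAV-GFP without overlap were 1 of the 14 core subunits, Psmb5, 0 of the 18 and 1 of the 7, Psmf1. Over all genes 9.38% were.

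Class I heavy chains, which B2m pairs with, had a median log2 difference of 0.58 against AAV-GFP over 14 genes tested of 19 listed. Of these, 1 was called (0.897% of all genes were), H2-T22, a nonclassical class I molecule, and 10 were higher without overlap (9.38% of all genes). H2-T22 read 4.30, 3.70 and 3.72 in untreated livers, 4.06, 4.04 and 4.10 with AAV-GFP, and 5.18, 5.29 and 5.61 with AAV-hGRβ. It was higher by 1.29 over AAV-GFP (SE 0.21, adjusted p = 0.0297, limma) and by 1.45 over untreated livers (adjusted p = 0.0115). Its call against AAV-GFP was kept under 9 of 21 alternatives and was lost without any 1 of the AAV-GFP arrays (adjusted p from 0.0581 to 0.121), any 1 of the AAV-hGRβ arrays (0.0684 to 0.137) or untreated replicate 4 (0.0533). Against untreated livers 12 heavy chains were higher without overlap (14.7% of all genes). There 3 were called higher in limma (2.51% of all genes): H2-T22, H2-T10 (1.37, adjusted p = 0.0204) and H2-T24 (2.45, adjusted p = 0.0365). These calls were kept under 13 of 21 alternatives for H2-T22, 12 of 21 for H2-T10 and 9 of 20 for H2-T24. All 3 were lost with slide as a random block (adjusted p = 0.0757, 0.149 and 0.224, limma) and without untreated replicate 3 (0.0608, 0.0954 and 0.141), untreated replicate 4 (0.0618, 0.0952 and 0.153) or AAV-hGRβ replicate 3 (0.0638, 0.109 and 0.160). H2-T10 also lost its call without AAV-hGRβ replicate 2 (0.0530), and H2-T24 without that array (0.0572), AAV-hGRβ replicate 1 (0.0626) or AAV-GFP replicate 2 (0.0632). H2-T24 stood at 0.31 under normexp correction. The classical chains H2-K1 and H2-D1, named beside the rule because they are the main partners of B2m, differed from AAV-GFP by 0.26 (adjusted p = 0.598) and 0.49 (adjusted p = 0.327). Some heavy chain genes, H2-T10 and H2-T22 among them, are close copies of each other, so a probe may read more than 1 of them.

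A further list held 12 factors that fold class I in the endoplasmic reticulum or trim peptides in or outside it. Of these, 0 were called (0.897% of all genes) and 0 had an unadjusted limma p under 0.05 (11.7%), and their median was -0.11. Ganab, a glucosidase subunit, differed by -0.32 (adjusted p = 0.572) and Uggt1, which returns misfolded glycoproteins to the folding cycle, by -0.34 (adjusted p = 0.578). Of 8 class II presentation genes (median 0.35) 0 were called, and 2 had an unadjusted limma p under 0.05 (11.7% of all genes). These were Ctss, a protease that trims the invariant chain (0.87, adjusted p = 0.324), and the peptide exchange subunit H2-DMb1 (0.72, adjusted p = 0.409).

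**Figure D4:**
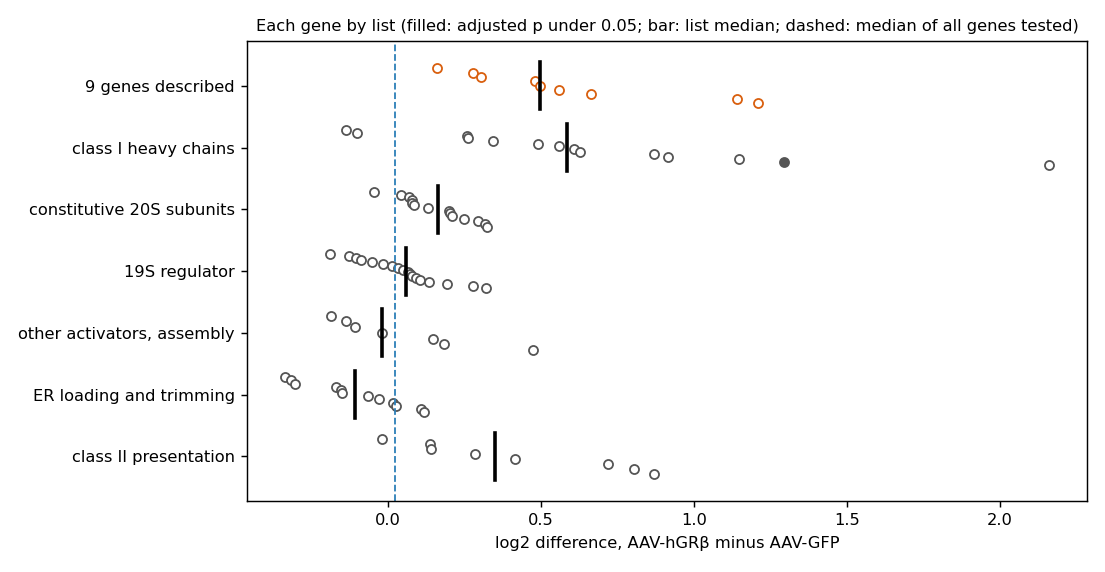
Log2 difference between AAV-hGRβ and AAV-GFP for each tested gene of the 9 described and of 6 pathway lists. The lists are class I heavy chains, constitutive core, regulatory particle, other activators and assembly factors, folding and peptide trimming factors (labelled ER loading and trimming) and class II presentation. Bars are list medians, the dashed line is the median of all genes tested (0.022), and genes with an adjusted p under 0.05 in limma are filled. The 9 genes (median 0.50) and the class I heavy chains (0.58) lie mostly right of the dashed line, the constitutive core subunits (0.16) closer to it, and H2-T22 is the only filled point among the genes drawn. Regulators and cell type markers are not drawn.

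Regulators known to drive these genes included 1 called gene of 15 tested (0.897% of all genes were called), with a list median of 0.39. Tnf, the cytokine tumour necrosis factor, was well above background on 1 untreated, 0 AAV-GFP and 3 AAV-hGRβ arrays. It thus passed the filter on dim probes only through the group where it was high. AAV-hGRβ was 2.65-fold above a floor set for AAV-GFP. The measured difference was called (adjusted p = 0.0298, limma), but with no filter the call was lost (adjusted p = 0.126). Tnf stood at -0.71 under normexp correction and at 0.35 (adjusted p = 0.610) with bright local backgrounds replaced before it. Without single arrays the call of Tnf was lost for untreated replicates 3 and 4, all AAV-GFP replicates and AAV-hGRβ replicates 1 and 3, with adjusted p from 0.0556 to 0.142. Irf1, which activates Psmb9 and Tap1, differed by 0.41 (adjusted p = 0.524), and Ifng, the gene of interferon γ, by 1.50 (SE 0.58, adjusted p = 0.350) on a probe well above background on 8 arrays. Nlrc5, the class I transactivator, was not analysed here.

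Promoter sequence was read from RefSeq windows of assembly GRCm38.p6, a later build than that of the probe positions, over the 250 bases before each start. Windows were found for 8 of the 9 genes, Tap2 being the exception. Each was searched on both strands for the core of the interferon-stimulated response element, GAAANNGAAA, for the interferon γ-activated sequence GAS, TTCNNNGAA, and for the κB motif. These occurred in 2.98%, 7.02% and 3.90% of 32851 such windows of all genes, and the searches could overlap. B2m held 1 response element core (chr2:122147548-122147557) and 1 κB match (chr2:122147561-122147570), and Psmb8 held 1 GAS match (chr17:34198098-34198106). The other 6 genes had no match in these bases. Psmb9 and Tap1 start in opposite directions 225 bases apart, at chr17:34187331-34187555, and share the stretch between their starts. The differences from AAV-GFP were 1.21 for Psmb9 and 0.56 for Tap1. The windows of the genes with matches, matches in capitals, and the shared stretch on the strand of Tap1 are shown so that they can be set beside those values:
B2m, chr2:122147437-122147686, plus strand: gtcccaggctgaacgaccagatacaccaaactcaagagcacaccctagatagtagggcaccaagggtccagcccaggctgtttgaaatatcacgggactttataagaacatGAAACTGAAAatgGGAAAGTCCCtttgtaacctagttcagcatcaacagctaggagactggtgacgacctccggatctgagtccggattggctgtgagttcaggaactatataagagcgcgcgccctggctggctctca
Psmb8, chr17:34197945-34198194, plus strand: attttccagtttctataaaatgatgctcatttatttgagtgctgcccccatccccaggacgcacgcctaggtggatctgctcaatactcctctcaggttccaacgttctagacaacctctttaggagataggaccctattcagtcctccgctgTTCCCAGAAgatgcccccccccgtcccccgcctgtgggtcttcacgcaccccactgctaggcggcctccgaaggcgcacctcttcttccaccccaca
Psmb9 and Tap1, chr17:34187331-34187555, plus strand: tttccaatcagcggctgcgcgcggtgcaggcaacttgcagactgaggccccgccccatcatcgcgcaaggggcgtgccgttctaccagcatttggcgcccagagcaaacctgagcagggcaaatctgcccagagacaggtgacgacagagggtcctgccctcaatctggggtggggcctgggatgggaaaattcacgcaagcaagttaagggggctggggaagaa

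Among themselves, the 9 genes did not follow 1 course over the 9 arrays. Each gene was set on its own mean and SD, and the mean of these scores lay between 0.72 and 1.03 on the AAV-hGRβ arrays and between -0.83 and -0.25 on the others. Psmb8 followed this mean most closely (Pearson r = 0.95 over 9 arrays), then Psmb9 (0.93), Psme1 (0.92), Psmb10 (0.87), B2m (0.77), Tapbp (0.75), Tap1 (0.61), Psme2 (0.53) and Tap2 (0.19). These are descriptions, since each gene is part of the mean and the arrays of a group share a treatment. The other genes with the highest correlation to that mean were Cxcl10 (0.988), a chemokine that draws T cells, Usp18 (0.985), which restrains interferon receptor signalling, the pore-forming protein gene Gsdmd (0.985), the F-box gene Fbxo39 (0.984) and Zbp1 (0.984), which senses left-handed nucleic acid. Of these, Gsdmd differed from AAV-GFP by 0.50 and the others by 1.88 to 2.49.

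The immunoproteasome is common in immune cells, and the summed signals of T and NK cell, macrophage, pan-leukocyte and B cell markers were higher on all AAV-hGRβ arrays than on any other, while those of neutrophil and dendritic cell markers overlapped. Against AAV-GFP, 4 of 14 markers of T and NK cells were called, where 0.897% of all genes were. These were Cd8a (12.6-fold above a floor set for AAV-GFP), Gzma (log2 difference 3.72), Gzmb (2.34) and Nkg7 (2.21), with adjusted p from 0.00834 to 0.0407 in limma. Their names, and that of Mpeg1, are given because few markers were called, after their values were seen. Calls were kept under 18 of 20 alternatives for Cd8a, 15 of 20 for Gzma, 9 of 21 for Gzmb, 8 of 21 for Nkg7 and 18 of 21 for Mpeg1. Leaving out AAV-GFP replicate 1 or AAV-hGRβ replicate 1 ended the call of Gzma (adjusted p = 0.0638 and 0.0614). For Gzmb and Nkg7 the call ended without any 1 of the AAV-GFP arrays, untreated replicate 3 or 4, or AAV-hGRβ replicate 1 or 3 (0.0512 to 0.165). Under normexp correction Cd8a stood at 0.36 (adjusted p = 0.786). All 14 markers were above 0 against AAV-GFP, with a median of 1.36. The lowest were the CD3 chain gene Cd3e (0.018) and the coreceptor gene Cd8b1 (0.0049), also chosen after their values were seen. Another CD3 chain gene, Cd3d, differed by 1.88 (adjusted p = 0.209, limma). The summed linear signal of all 14, as a multiple of the 75th percentile, was 2.52 to 2.91 on untreated arrays, 2.75 to 2.91 with AAV-GFP and 5.47 to 12.0 with AAV-hGRβ. The Cd8a probe tested was well above background on 0 untreated, 0 AAV-GFP and 3 AAV-hGRβ arrays, and that of Klrk1 on 1, 0 and 3. Cd8a, Klrk1, Prf1 and Ncr1 thus passed the filter on dim probes only through the AAV-hGRβ arrays. The call of Cd8a is for that reason not separate support for a difference. For Kupffer cell and macrophage markers, 1 of 10 was called, Mpeg1 (1.55, adjusted p = 0.00650, limma), and the sums were 90.0 to 115, 95.1 to 154 and 227 to 293 in the same order, and for pan-leukocyte markers, 0 of 7 were called and the sums were 15.2 to 17.7, 14.2 to 21.6 and 27.3 to 46.8. B cell markers (0 of 5 called) summed to 2.22 to 3.35, 2.04 to 3.67 and 4.31 to 4.57, neutrophil markers (0 of 5) to 3.62 to 7.97, 3.69 to 9.92 and 9.10 to 18.1, and dendritic cell markers (0 of 7) to 0.684 to 0.798, 0.453 to 0.782 and 0.739 to 1.16. Counted over all probes of a gene, further markers never well above background were Pax5, Siglech and Cd209a with AAV-GFP and in untreated livers, and Elane in untreated livers. Hepatocyte markers (0 of 9 called, all below 0, median -0.31) were abundant on every array, with sums of 2412 to 3483, 2844 to 3795 and 2303 to 2932. Endothelial (0 of 8), stellate (0 of 6) and cholangiocyte markers (0 of 5) had medians of -0.23, -0.37 and 0.33. An unadjusted limma p under 0.05 was met by 11.7% of all genes. Among the markers it was met by 9 of 14 for T and NK cells, Cd8a and Klrk1 included, and 3 of 10 for macrophages. The further counts were 6 of 7 for pan-leukocyte, 2 of 5 for B cell, 3 of 5 for neutrophil and 1 of 7 for dendritic cell markers. They were 4 of 9 for hepatocyte, 1 of 8 for endothelial, 2 of 6 for stellate and 0 of 5 for cholangiocyte markers. The part of these cell types in the differences of the 9 genes was not tested.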

How the data were processed

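The array files hold linear Cy3 spot intensity, background-corrected within each array but not scaled between arrays, per the file headers. Agilent Feature Extraction 9.5 made them, per the submitters' notes on processing. The deposited series table held the same intensity values. Its use as an alternative thus repeats the main fit and keeps every call. Later steps were not given in the sources used here. Control spots and spots flagged as outliers were left out, and spots of a probe were averaged. The 75th percentile of each array was subtracted from its log2 processed intensity. Kept were probes well above background on every array of any group (24272 probes, of which 24141 had a value on every array and were fitted), and genes with several probes were represented by the brightest on average (16730 genes). Names came from RefSeq (GRCm38.p6). The tests used limma 3.58.1 (R 4.3.3) over all 9 arrays (6 residual degrees of freedom, two-sided), checked first on simulated data. There, 21 of 100 genes with a true log2 change of 1 were called, 70 of 100 with a change of 2, and 3 unchanged genes. A gene that was not called, such as those of the 9 against AAV-GFP, may thus still differ by such amounts. The fold above a floor is the mean of the brighter group over a floor, which on each array of the dim group is the lowest signal well above background, or the signal of the probe where that is higher. This fold depends on the background correction and is not a lower limit of the difference. Named were all 9 genes, up to 3 called genes per list (otherwise the 2 with the smallest p), 8 genes of interest, of which 1 is not reported here, and the 5 genes most like the mean of the 9. The genes and lists were chosen with earlier results of these data known.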

Additional observations from a re-analysis of the deposited data

How the results depend on the processing

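With 3 arrays per group, and signals of dim probes such as Tnf near background, the number of arrays limits the precision. Direction and call were kept in 678 of 834 comparisons of a gene with its value under an alternative, and 117 lost and 16 gained a call. Those kept include the deposited series table, which holds the values of the main fit and could not differ from it. Of the 9 genes, the number called against AAV-GFP was 0 under most settings, 2 under normexp once bright local backgrounds were replaced, 1 under quantile normalization, 1 with only probes above background on all 9 arrays, and 0 to 2 when arrays were left out singly. Against untreated livers it was 2, but 0 under normexp correction, scaling to medians, no filter on dim probes, slide as a random block or only the 2 groups compared, and 0 to 4 with arrays left out. Replicate numbers did not pair the arrays (correlations of deviations 0.01, 0.24 and 0.01 between AAV-GFP and AAV-hGRβ), and with the replicate block 0 of the 9 genes and 0 pathway list genes were called in either comparison, and 0 cell type markers against AAV-GFP. Pathway list genes called against AAV-GFP were 2, but 0 under normexp correction, no filter and slide as a random block, 1 under scaling to medians and with only the 2 groups compared, and 0 to 4 with arrays left out. Against untreated livers they were 5, but 0 under normexp, no filter and slide as a random block, 3 under scaling to medians and with only the 2 groups compared, 9 with scan day as a block and 0 to 19 with arrays left out. Cell type markers called against AAV-GFP were 5, but 0 under normexp, 2 with no filter, 3 with only probes above background on all 9 arrays, slide as a random block or only the 2 groups compared, and 2 to 5 with arrays left out. Direction turned against AAV-GFP for Tap1 (-0.064) and Tnf (-0.71) under normexp, for Psme2 (-0.061), Tap2 (-0.18) and B2m (-0.035) under scaling to medians, and for Tap2 without AAV-GFP replicate 3 (-0.019) or AAV-hGRβ replicate 1 (range -0.12 to 0.47 with arrays left out). Against untreated livers it turned for Tap1 (-0.091) and Tnf (-0.50) under normexp, for Tap1 (-0.015) under scaling to medians, and for Tap2 with slide as a random block (0.084) or without AAV-hGRβ replicate 2 (range -0.37 to 0.22). Between AAV-GFP and untreated livers, small differences turned: Psmb8 (-0.0016) and Psme1 (-0.035) under normexp, Psmb10 (0.00589) with bright backgrounds replaced, Psmb10 (0.00071) under scaling to medians, Psme1 (-0.079) and B2m (-0.11) under quantile normalization, Psmb10 with the replicate block (0.014), Psmb10 without untreated replicate 2 (0.14), AAV-GFP replicate 1 (0.054) or AAV-GFP replicate 2 (0.00102), and Tap1 without AAV-GFP replicate 3 (range -0.48 to 0.038). There, Psmb8 minus Psmb5 gave 0.10 with the second Psmb8 probe and -0.15 to 0.080 with arrays left out, and Psmb9 minus Psmb6 gave 0.021 and 0.016 under the normexp settings and -0.14 to 0.075. Scaling to medians lowered all genes alike, by 0.34 against AAV-GFP and 0.33 against untreated livers, which gives its turns in these comparisons. The cause of the other turns was not tested.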
